A study of Mus musculus with 16 samples.

Results

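The replication licensing genes are here 10 mouse genes of the loading of the replicative helicase onto DNA: the subunits of its ring, *Mcm10*, which acts after loading, a pair of loading factors and an inhibitor. They are *Mcm2*, *Mcm3*, *Mcm4*, *Mcm5*, *Mcm6*, *Mcm7*, *Mcm10*, *Cdt1*, *Cdc6* and *Gmnn*. They were chosen by name, with earlier results of these data known, and are 10 of the 30451 genes in the table of unique molecular identifiers (UMIs, each of which marks 1 captured mRNA). All 10 were found in the table, and each had UMIs in both libraries.

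Origins of replication are licensed when the origin recognition complex, CDC6 and CDT1 load the ring of MCM2 to MCM7 onto DNA, in late mitosis and the first gap phase of the cell cycle. MCM10 joins later, when the loaded ring is turned into a working helicase and DNA synthesis starts. Geminin, the product of *Gmnn*, binds CDT1 from S phase until mitosis and so prevents a second loading in the same cycle. The genes are textbook targets of E2F transcription factors, and MCM proteins are used as markers of cells that are in the cycle or able to return to it. In the newborn testis Sertoli cells, which form the tubules, divide rapidly, and fetal-type Leydig cells, which make androgens, divide little.

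Whole testes of mice at postnatal day 2 were taken apart into single cells, whose mRNA was captured in droplets and read from its 3′ end. The samples were of wild-type mice and of *Ddx5* conditional knockout mice, made with floxed *Ddx5* and *Mvh*-Cre, a Cre recombinase that is driven by a germ cell promoter, so that *Ddx5* was left intact in the somatic cells by design. GFP, which in an *Oct4*-GFP transgene marks germ cells in the study, and CRE were counted with the mouse genes. The labels number 8 samples for each genotype, but the barcodes carry no sample number, so each genotype was 1 library here, no test was possible and no p-value is given. All intervals are 95% intervals and cover counting error only.

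After cells with fewer than 2000 genes or with over 10% of UMIs from mitochondria were left out, 6329 wild-type cells with 82916872 UMIs and 4950 cells with 66208479 UMIs of the other library remained. *Ddx5* itself went against the label in germ cells, at 1152 CPM (counts per 1000000 UMIs) in wild type and 1736 CPM in the other library, which is therefore called the library labelled *Ddx5* knockout. CRE went with the label: the 12 germ cells that carry the knockout label held 20 CRE UMIs (43.2 CPM), and the kept wild-type cells held 0. In Sertoli cells *Ddx5* was at 936 and 882 CPM, and in stroma at 634 and 568 CPM. The libraries shared 12 barcode sequences.

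Cells were assigned to 6 types by gates on marker UMIs, none of which uses a licensing gene. In wild type the gates took 2256 Sertoli cells (at least 3 *Amh* UMIs), 3590 stromal cells (at least 1 *Pdgfra* and at most 2 *Amh* UMIs), 764 myoid cells (at least 5 *Acta2* and 2 *Myh11* UMIs), 177 Leydig cells (at least 20 UMIs of 3 steroid enzyme genes), 31 macrophages (at least 5 UMIs of 3 complement C1q genes) and 125 germ cells (at least 3 of 4 germ cell genes). In the library labelled *Ddx5* knockout they took 1635, 3005, 524, 143, 23 and 12 cells in the same order. Every marker on the list of its own type was detected in each gate. The types were not all separate: 88.2% and 91.2% of the myoid cells in the respective libraries also passed the stroma gate, and 31.2% of the wild-type germ cells also passed the Sertoli gate. Markers of Sertoli cells summed to 1263 CPM in wild-type germ cells and to 73.4 CPM in those of the other library, and their part in the germ cell values was not tested.

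The promoters of the members are shown because the genes are textbook E2F targets, and they are given for the letters of E2F sites that they hold. RefSeq promoters (GRCm38.p6, 250 bases before to 50 bases after the transcription start) were given for 8 of the 10 members; *Mcm4* and *Gmnn* had no entry. Capitals mark E2F letters, TTTGGCGC, TTTCCCGC, TTTCGCGC or TTTGCCGC on either strand, and the letters of the cell cycle homology region (CHR), TTTGAA or TTCGAA on either strand. The regions are, as printed 5′ to 3′ on the strand of the gene, chr1:20820263-20820562 for *Mcm3* and chr1:128359656-128359955 for *Mcm6*, both on the minus strand, chr8:75109259-75109558 for *Mcm5*, chr8:122567765-122568064 for *Cdt1* and chr11:98907901-98908200 for *Cdc6*, all on the plus strand, and chr6:88898731-88899030 for *Mcm2* and chr2:5012742-5013041 for *Mcm10*, both on the minus strand.
Mcm3: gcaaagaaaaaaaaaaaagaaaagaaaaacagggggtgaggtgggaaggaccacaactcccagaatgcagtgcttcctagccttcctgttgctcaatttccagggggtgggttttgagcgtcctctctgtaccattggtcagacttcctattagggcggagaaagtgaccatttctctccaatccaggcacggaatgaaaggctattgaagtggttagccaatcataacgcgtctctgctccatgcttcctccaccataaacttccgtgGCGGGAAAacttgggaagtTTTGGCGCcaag
Mcm6: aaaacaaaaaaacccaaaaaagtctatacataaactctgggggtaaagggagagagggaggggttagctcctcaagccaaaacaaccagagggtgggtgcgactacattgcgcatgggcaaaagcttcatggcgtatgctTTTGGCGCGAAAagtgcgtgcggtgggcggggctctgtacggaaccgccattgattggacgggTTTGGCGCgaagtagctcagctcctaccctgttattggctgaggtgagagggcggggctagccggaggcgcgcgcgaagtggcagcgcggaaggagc
Mcm5: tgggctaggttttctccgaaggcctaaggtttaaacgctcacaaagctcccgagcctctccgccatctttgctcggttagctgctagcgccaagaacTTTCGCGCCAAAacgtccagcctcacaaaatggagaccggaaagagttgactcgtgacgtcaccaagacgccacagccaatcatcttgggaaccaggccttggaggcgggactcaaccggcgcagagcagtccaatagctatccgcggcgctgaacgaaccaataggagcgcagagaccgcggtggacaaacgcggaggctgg
Cdt1: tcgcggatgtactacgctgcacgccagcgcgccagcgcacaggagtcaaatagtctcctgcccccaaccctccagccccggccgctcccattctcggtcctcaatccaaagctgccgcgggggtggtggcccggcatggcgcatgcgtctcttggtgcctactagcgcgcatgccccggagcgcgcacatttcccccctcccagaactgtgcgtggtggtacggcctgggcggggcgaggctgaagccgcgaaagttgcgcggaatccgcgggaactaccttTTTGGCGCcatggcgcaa
Cdc6: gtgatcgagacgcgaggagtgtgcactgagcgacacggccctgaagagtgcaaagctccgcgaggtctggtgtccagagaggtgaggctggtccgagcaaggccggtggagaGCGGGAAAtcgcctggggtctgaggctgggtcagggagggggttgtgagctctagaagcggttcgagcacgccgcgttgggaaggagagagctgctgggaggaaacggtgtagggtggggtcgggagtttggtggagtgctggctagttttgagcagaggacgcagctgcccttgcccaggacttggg
Mcm2: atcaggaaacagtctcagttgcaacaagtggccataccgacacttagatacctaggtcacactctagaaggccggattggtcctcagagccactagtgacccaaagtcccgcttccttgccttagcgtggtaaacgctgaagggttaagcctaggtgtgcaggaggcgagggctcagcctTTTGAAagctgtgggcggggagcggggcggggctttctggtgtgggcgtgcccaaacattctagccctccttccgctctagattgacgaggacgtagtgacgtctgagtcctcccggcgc
Mcm10: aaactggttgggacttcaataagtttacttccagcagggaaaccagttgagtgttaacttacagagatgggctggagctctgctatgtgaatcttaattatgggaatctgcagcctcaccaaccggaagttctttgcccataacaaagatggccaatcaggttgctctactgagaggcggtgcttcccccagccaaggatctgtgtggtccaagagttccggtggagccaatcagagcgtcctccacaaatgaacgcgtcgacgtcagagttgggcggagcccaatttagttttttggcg

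E2F letters were in the promoters of 6 of the 8 members, *Mcm3*, *Mcm5*, *Mcm6*, *Mcm7*, *Cdt1* and *Cdc6*, and in 2.26% of all 32851 promoters of this length. In *Mcm6* and *Mcm5* matches on opposite strands overlapped, starting 110 and 106 bases before the start of *Mcm6* and 153 and 149 bases before that of *Mcm5*. *Mcm7* had E2F letters in 1 of its 2 promoter entries, chr5:138171834-138172133 on the minus strand, where one of the matches shared its last base with a CCAAT. CHR letters were in *Mcm2* and *Mcm7*, and in 19.2% of all promoters. CCAAT, on either strand, was in 6 of the 8 members, *Cdt1* and *Cdc6* being the exceptions, and in 37.4% of all promoters. A match of letters is a description of the sequence and not a site of binding.

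The 6 subunits of the helicase ring, summed, were highest in germ cells and in Sertoli cells of wild-type testes and lowest in Leydig cells. The Mcm2-7 sum was 875 CPM (interval 847 to 903) in germ cells, 611 CPM (603 to 619) in Sertoli cells, 435 CPM (422 to 448) in myoid cells, 365 CPM (359 to 371) in stroma, 185 CPM (151 to 223) in macrophages and 134 CPM (121 to 148) in Leydig cells. No neighbours in this order had overlapping intervals. In the library labelled *Ddx5* knockout the sum was 609.6 CPM (601 to 619) in Sertoli cells, 462 CPM (446 to 478) in myoid cells and 342 CPM (336 to 349) in stroma. It was 253 CPM (209 to 303) in the 12 germ cells, 200 CPM (164 to 242) in macrophages and 158 CPM (144 to 174) in Leydig cells, and the intervals of neighbours overlapped among these last types. The somatic types thus stood in the same order in both libraries, except that the intervals of macrophages and Leydig cells overlapped in the second.

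**Figure D1:**
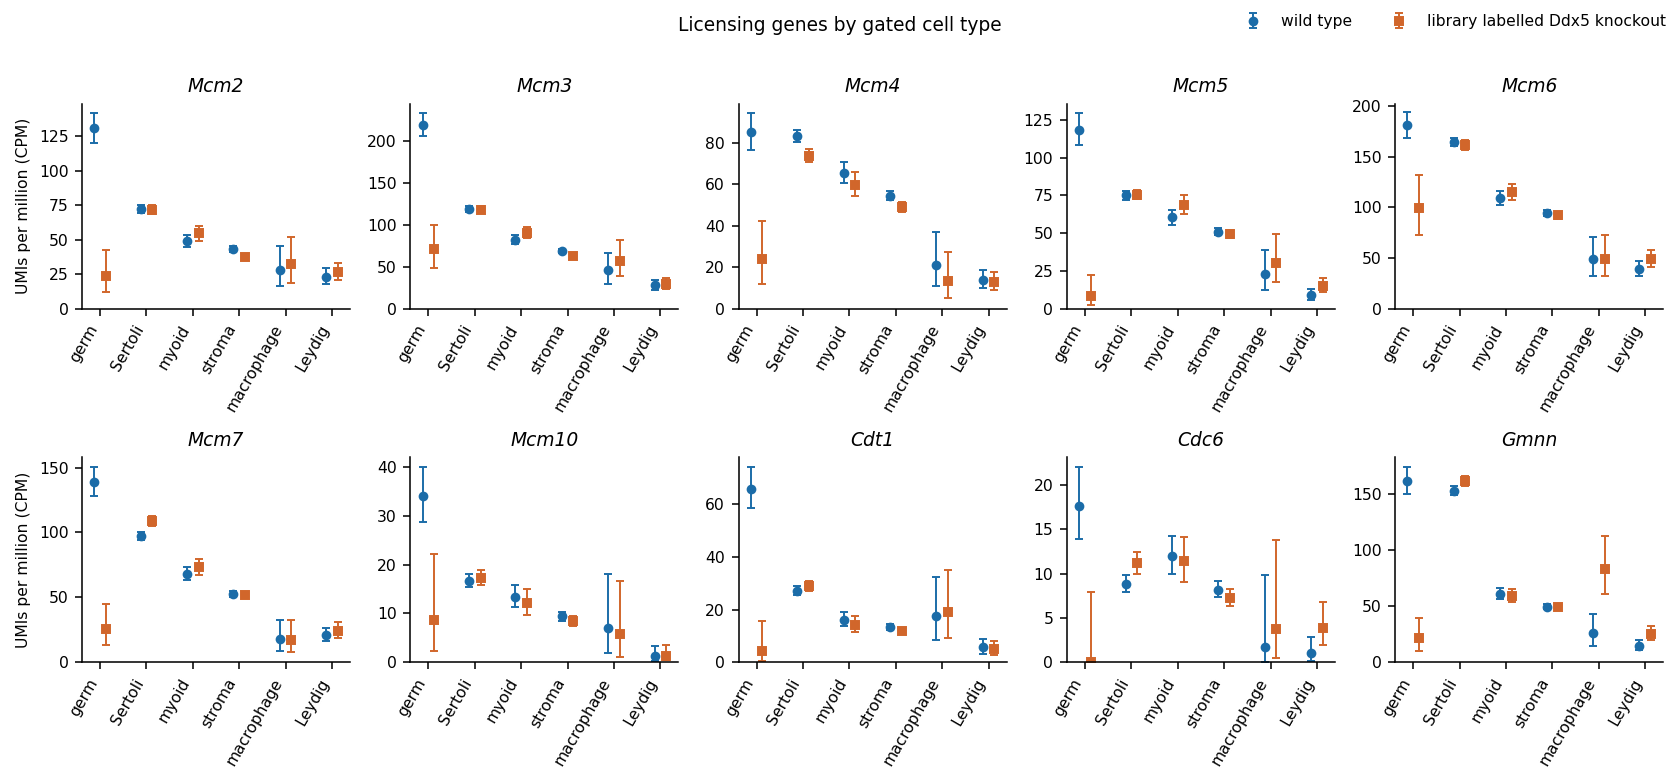
Level of each licensing gene in 6 gated cell types, in CPM on a linear axis, with 1 point per library and exact 95% Poisson intervals as bars. For the Mcm2-7 subunits the wild-type points of Sertoli cells stand above those of myoid cells and stroma, and Leydig cells and macrophages are lowest.

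Among the ring subunits *Mcm2* was at 72.0 CPM in wild-type Sertoli cells and 71.8 CPM in Sertoli cells of the other library, against 43.2 and 37.3 CPM in stroma. *Mcm3* was at 119 and 118 CPM in Sertoli cells and 69.0 and 62.6 CPM in stroma, and *Mcm4* at 83.2 and 73.6 CPM against 54.4 and 48.9 CPM. *Mcm5* was at 75.1 and 75.6 CPM against 51.1 and 49.5 CPM. In all of these the Sertoli value was the higher in both libraries. *Mcm6* was at 164 and 162 CPM in Sertoli cells and 94.8 and 92.1 CPM in stroma, and *Mcm7* at 97.3 and 109 CPM against 52.2 and 51.8 CPM. Germ cells of wild type were above both, from 85.1 CPM for *Mcm4*, where the interval overlapped that of Sertoli cells, to 220.0 CPM for *Mcm3*. In Leydig cells the wild-type values of the subunits lay between 8.97 CPM for *Mcm5* and 39.2 CPM for *Mcm6*.

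The loaders were lower in count. *Cdt1* was at 27.1 and 28.8 CPM in Sertoli cells of the respective libraries, 16.2 and 14.3 CPM in myoid cells and 13.3 and 11.9 CPM in stroma, and wild-type germ cells were highest at 65.9 CPM. *Cdt1* in macrophages, at 17.6 and 19.0 CPM, overlapped with its values in Sertoli and myoid cells. *Cdc6* had a different order from the rest: in wild type it was at 11.96 CPM (9.91 to 14.3) in myoid cells, above 8.82 CPM (7.89 to 9.83) in Sertoli cells, which overlapped with 8.21 CPM in stroma. In the library labelled *Ddx5* knockout *Cdc6* in myoid cells, at 11.4 CPM, overlapped with Sertoli cells at 11.2 CPM (9.98 to 12.4). The order of *Cdc6* between myoid and Sertoli cells was therefore seen in 1 library only. Wild-type Leydig cells held 3 *Cdc6* UMIs, and Leydig cells of the other library 11.

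*Mcm10*, the later partner of the ring, was at 16.6 and 17.3 CPM in Sertoli cells, 13.5 and 12.2 CPM in myoid cells and 9.39 and 8.38 CPM in stroma. *Gmnn*, the inhibitor, was at 153 and 162 CPM in Sertoli cells, 61.3 and 59.5 CPM in myoid cells, 49.7 and 49.1 CPM in stroma and 14.9 and 25.7 CPM in Leydig cells. In wild type *Gmnn* in germ cells, at 162 CPM, overlapped with Sertoli cells, a neighbour from which the ring subunits other than *Mcm4* were separate. Wild-type macrophages held 15 *Gmnn* UMIs (26.4 CPM), and those with the knockout label 44 (83.8 CPM).

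Set against stroma, the Mcm2-7 sum of Sertoli cells was 1.67 times as high in wild type (1.64 to 1.71) and 1.78 times as high in the library labelled *Ddx5* knockout (1.74 to 1.82). All 10 genes were above 1 in both libraries. *Gmnn* stood farthest out, at 3.09 times (2.93 to 3.25) and 3.30 times (3.11 to 3.49), followed by *Cdt1* at 2.03 (1.82 to 2.26) and 2.43 (2.15 to 2.75). *Cdc6* was at 1.07 in wild type, with an interval of 0.918 to 1.26 that included 1, and at 1.53 (1.29 to 1.81) in the other library. The ring subunits lay between 1.47 for *Mcm5* and 1.86 for *Mcm7* in wild type, and between 1.51 for *Mcm4* and 2.10 for *Mcm7* in the other library.

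On the log2 scale with 10 CPM added to both sides, 1 of the 10 genes, *Gmnn* at 1.45 and 1.54, was more than 2-fold higher in Sertoli cells in each library. Of all genes with at least 20 UMIs in both groups together, 11.1% and 11.5% passed 2-fold in either direction in the respective libraries, and 5.23% and 5.32% were higher. The median of the 10 genes on this scale was 0.65 and 0.77, beside 0.00 and -0.01 for all genes. Sertoli cells were also the deeper, with a median of 13711 UMIs per cell in wild type against 9838.5 in stroma.

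**Figure D2:**
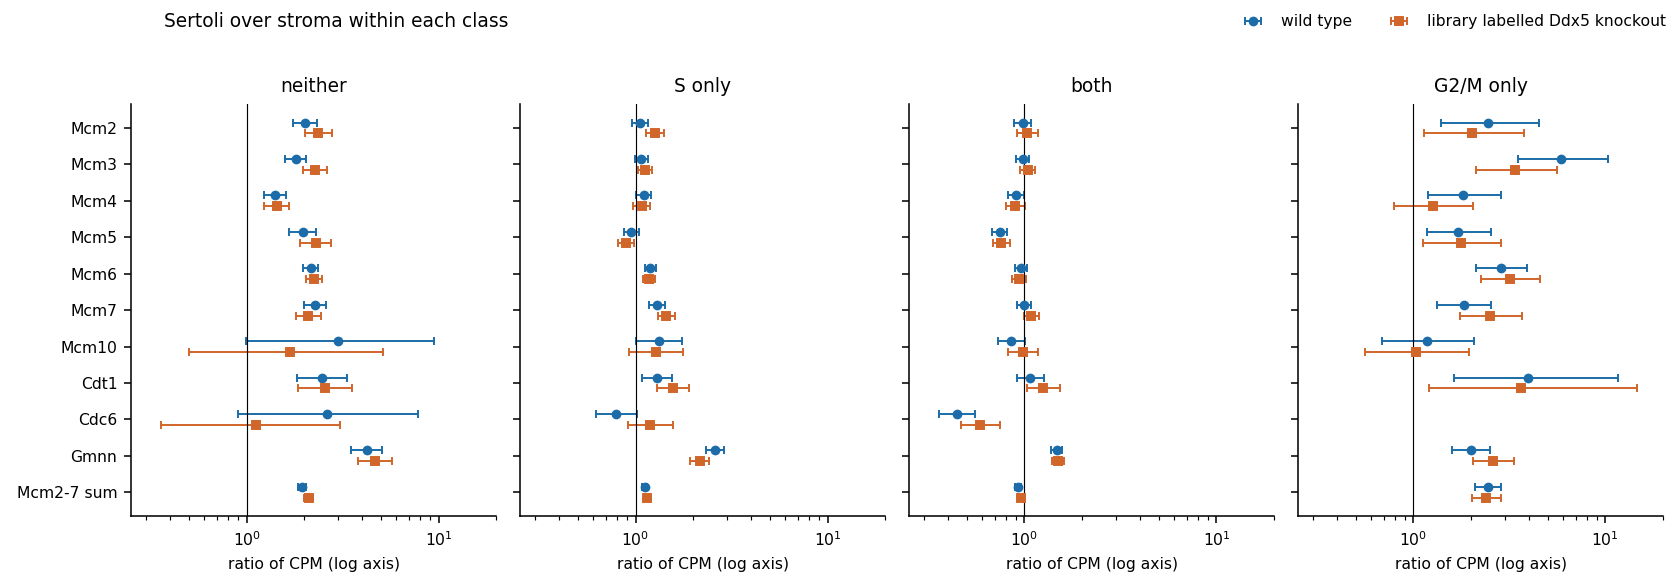
Ratio of the level in Sertoli cells to that in stroma for each licensing gene and for the Mcm2-7 sum, within each of 4 cell cycle classes described below. The axis is a log axis, with exact conditional 95% intervals and 1 point per library. Where a type held no UMIs of a gene, the point is not drawn. *Gmnn* is above 1 in every class in both libraries, and *Cdc6* in cells above both cuts is below 1 in both.

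Myoid cells were nearer to stroma. Their Mcm2-7 sum was 1.19 times that of stroma in wild type (1.15 to 1.23) and 1.35 times in the library labelled *Ddx5* knockout (1.298 to 1.40), and none of the 10 genes passed 2-fold, beside 1.24% and 1.47% of all genes. By the plain ratio of CPM *Cdc6* was the farthest of the 10 from stroma in both libraries, at 1.46 and 1.56 times. On the log2 scale with 10 CPM added it was not. Most myoid cells were counted in stroma too. When cells of more than 1 gate were left out, 25 myoid cells remained in the library labelled *Ddx5* knockout and the ratio turned to 0.687.

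Leydig cells were lower than stroma in all 10 genes in both libraries. Their Mcm2-7 sum was 0.368 times that of stroma in wild type (0.332 to 0.406) and 0.463 times in the library labelled *Ddx5* knockout (0.420 to 0.508). In wild type 6 of the 10 genes were more than 2-fold lower, *Mcm3* to *Mcm7* and *Gmnn*, beside 7.03% of all genes, and in the other library 2, *Mcm4* and *Mcm5*, beside 7.23%. With 50 CPM added instead of 10 CPM, none passed 2-fold in either library. *Mcm5* had a ratio of 0.175 and 0.309 in the respective libraries, and *Mcm2* of 0.539 and 0.708. With at most 5% mitochondrial UMIs, which left 42 and 30 Leydig cells, the ratio of the sum was 0.570 and 0.978. The low level in Leydig cells of the second library thus did not hold in these few cells.

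Macrophages were sparse. Their Mcm2-7 sum was 0.506 and 0.584 times that of stroma, and *Mcm4* and *Mcm7* were more than 2-fold lower in both libraries, beside 10.6% and 10.2% of all genes. Neither they nor another of the 10 genes passed 2-fold with 50 CPM added instead of 10 CPM. *Gmnn* in macrophages was at 0.530 times stroma in wild type and at 1.71 times in the library labelled *Ddx5* knockout, on 15 and 44 UMIs. In wild-type germ cells 7 of the 10 genes were more than 2-fold higher than in stroma, beside 13.5% of all genes, with *Cdt1* farthest out at 4.94 times (4.26 to 5.72) and *Mcm4* nearest at 1.56 times. Fewer of the 10 passed 2-fold in these cells with 50 CPM added. In the 12 germ cells that carry the knockout label 1 of 10, *Mcm5*, was more than 2-fold lower, beside 20.1% of all genes.

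The parts that the subunits took of the ring were close in Sertoli cells and stroma. Of all Mcm2-7 UMIs in wild-type Sertoli cells *Mcm2* held 11.8%, *Mcm3* 19.5%, *Mcm4* 13.6%, *Mcm5* 12.3%, *Mcm6* 26.9% and *Mcm7* 15.9%. In wild-type stroma the shares were 11.8%, 18.9%, 14.9%, 14.0%, 26.0% and 14.3% in the same order. In Leydig cells *Mcm2* held 17.3% and 16.7% in the respective libraries, *Mcm4* 10.4% and 8.13% and *Mcm5* 6.68% and 9.67%, of 404 and 455 ring UMIs. Germ cells of wild type differed in *Mcm3*, at 25.2%, *Mcm4*, at 9.73%, and *Mcm6*, at 20.7%. These shares compare cell types and not the genes with each other, since UMIs of 3′ ends were not set against transcript models.

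Geminin did not keep step with the ring. For 100 Mcm2-7 UMIs there were 25.1 and 26.5 *Gmnn* UMIs in Sertoli cells of the respective libraries, 13.6 and 14.3 in stroma, 14.1 and 12.9 in myoid cells and 11.1 and 16.3 in Leydig cells. Sertoli cells thus held more *Gmnn* for the same ring UMIs than stroma or myoid cells in both libraries. In wild-type germ cells the figure was 18.6, and in those of the other library 8.55.

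Single cells were examined for how many of the 6 subunits they held. Each cell was thinned to 5000 UMIs so that depth did not differ, which left out 19 Sertoli and 66 stromal cells of wild type as too shallow. At least 3 of the 6 ring subunits were then found in 35.5% of wild-type Sertoli cells (33.6 to 37.6), 21.9% of myoid cells (19.1 to 25.1), 17.2% of stromal cells (15.9 to 18.5) and 3.39% of Leydig cells (1.25 to 7.23). The library labelled *Ddx5* knockout had 36.4%, 24.4%, 15.8% and 4.23% in the same order. All 6 were found in 2.28% of wild-type Sertoli cells, 1.05% of stromal cells and 0 of 177 Leydig cells (0 to 2.06). *Gmnn* was found in 42.8% of the thinned wild-type Sertoli cells, 14.0% of stromal cells and 3.95% of Leydig cells, against 66.0%, 25.4% and 16.4% before thinning at median depths of 13711, 9838.5 and 14732 UMIs. Free RNA gives UMIs in cells that do not express a gene. No gated type is known to lack *Gmnn*, so that the share in Leydig cells, the lowest of these 3 types, is a comparison and not a measured background. In wild type it was below the shares of the Sertoli and stromal cells. In the other library it was 9.86% of thinned Leydig cells (5.50 to 15.99), with an interval that overlapped that of stroma, at 14.7% (13.5 to 16.1).

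To see how the genes followed the cell cycle, cells were divided by their UMIs of 37 S phase genes and 54 G2/M genes, the lists of Seurat without the licensing genes. A cut was placed on each list by the method of Otsu over all kept cells, at 16.1 UMIs per 10000 for S and 48.9 for G2/M. The resulting 4 classes are ranges and not cell types: 1615 cells (14.3%) lay within 20% of the S cut and 416 (3.69%) within 20% of the G2/M cut. Of wild-type Sertoli cells 34.5% were above neither cut, 28.2% above the S cut only, 28.3% above both and 8.998% above the G2/M cut only. The shares for stroma were 66.7%, 12.8%, 14.2% and 6.27%, and those for myoid cells 56.7%, 14.8%, 20.8% and 7.72%. Of 177 wild-type Leydig cells 97.2% were above neither cut, and of 125 germ cells 5.6%.

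In the library labelled *Ddx5* knockout 30.4% of Sertoli cells, 68.9% of stromal cells, 55.2% of myoid cells and 93.7% of Leydig cells were above neither cut, and so were 11 of the 12 germ cells. With all cells thinned to 5000 UMIs the shares above neither cut were 35.2% and 31.1% in Sertoli cells, 66.7% and 69.1% in stroma, 57.7% and 56.1% in myoid cells and 96.6% and 93.0% in Leydig cells. The order of these types by the share of cells above neither cut, Sertoli cells lowest and Leydig cells highest, was the order of their Mcm2-7 levels reversed. In bulk sums over a type, fewer expressing cells and less RNA per expressing cell cannot be told apart, and the levels within classes follow.

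**Figure D3:**
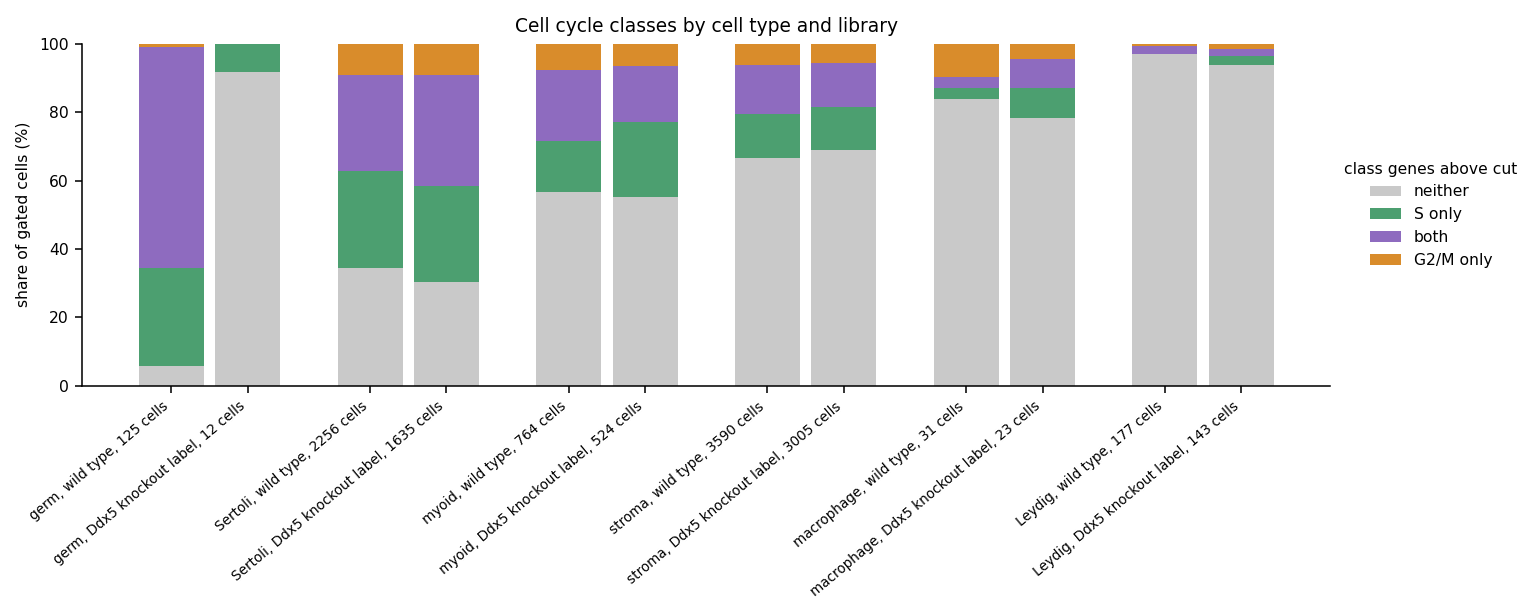
Percent of cells of each type in the 4 classes cut on S and G2/M genes, by library, with the number of cells. Sertoli cells have 34.5% and 30.4% above neither cut and Leydig cells 97.2% and 93.7%.

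Cells above the S cut only held more of all 10 genes than cells above neither cut. The Mcm2-7 sum of wild-type Sertoli cells was 290.5 CPM above neither cut and 1022 CPM above the S cut only, a ratio of 3.52 (3.37 to 3.67), and in the library labelled *Ddx5* knockout the ratio was 3.55 (3.39 to 3.73). In stroma the sum was 149 and 916 CPM in wild type, a ratio of 6.13 (5.87 to 6.41), with 6.50 (6.20 to 6.82) in the other library. Myoid cells had ratios of 5.38 and 5.01. The smaller ratio of Sertoli cells went with a higher level in cells above neither cut and a like level in cells above the S cut. The size of these ratios depended on the cut: with only cells below 0.5 times each cut as the reference, Sertoli cells had 6.49 and 6.47 and stroma 8.62 and 9.92, and with the highest 10% of cells as the cut, stroma had 4.12 and 4.03.

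All 10 genes were more than 2-fold higher above the S cut only than above neither cut in Sertoli cells, beside 0.756% and 0.688% of all genes in the respective libraries. The same was true of myoid cells, beside 1.79% and 1.19%, and of stroma, beside 0.913% and 0.886%. The classes were cut on other genes of the same phase, so that these counts describe how licensing genes went with them and are not independent of the cell cycle. By the plain ratio of CPM *Cdc6* and *Mcm10* had the widest ranges, on 8 and 7 UMIs above neither cut in wild-type stroma. On the log2 scale with 10 CPM added, *Mcm10* had the lowest of the 10 values there, at 1.21. In wild-type stroma *Cdc6* was at 0.349 CPM above neither cut and 20.6 CPM above the S cut only, a ratio of 59.1 (29.0 to 140.2), and in the other library the ratio was 24.8 (14.3 to 46.2). *Mcm10* in stroma was at 0.305 and 13.8 CPM in wild type, a ratio of 45.2 (20.9 to 116), and its ratio in the other library was 24.96 (12.7 to 54.7). In Sertoli cells the ratios were 17.8 and 26.4 for *Cdc6* and 19.9 and 18.9 for *Mcm10*, with intervals that overlapped. *Cdt1* in wild-type stroma was at 3.93 and 33.0 CPM, a ratio of 8.40.

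Cells above the G2/M cut only held few ring transcripts, and geminin was lower to a smaller extent. The Mcm2-7 sum there was 0.204 times that of cells above the S cut only in wild-type Sertoli cells (0.189 to 0.220) and 0.0935 times in stroma (0.0813 to 0.107), with 0.187 and 0.0900 in the other library. With the highest 10% of cells as the cut the ratio in stroma was 0.143 and 0.179. *Cdc6* was nearly absent, with 0 UMIs in these cells of wild-type stroma. *Gmnn* was at 0.437 times (0.384 to 0.496) in wild-type Sertoli cells and 0.567 times (0.453 to 0.704) in stroma, and *Mcm10* at 0.602 and 0.673 times. More than 2-fold lower were 9 and 8 of the 10 genes in Sertoli cells of the respective libraries, beside 0.512% and 0.523% of all genes, and 8 in stroma of both, beside 1.24% and 1.21%. In myoid cells 8 and 9 genes were, beside 2.09% and 2.39%.

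*Gmnn* and *Mcm10* were highest in cells above both cuts. *Gmnn* in wild-type stroma went from 72.5 CPM above the S cut only to 158 CPM above both cuts, a ratio of 2.18 (1.95 to 2.45), and in Sertoli cells from 187 to 232 CPM, a ratio of 1.24 (1.17 to 1.32). In the library labelled *Ddx5* knockout the ratios were 2.03 and 1.42. *Mcm10* was 2.36 times higher above both cuts than above the S cut only in wild-type stroma and 1.53 times higher in Sertoli cells, with 2.51 and 1.94 in the other library. The ring went the other way, at 0.754 and 0.628 times in wild type and 0.667 and 0.555 times in the other library. More than 2-fold apart were 1 gene in wild-type stroma (*Gmnn*, higher, beside 1.8% of all genes) and 1 in Sertoli cells of the library labelled *Ddx5* knockout (*Mcm6*, lower, beside 0.0672%).

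**Figure D4:**
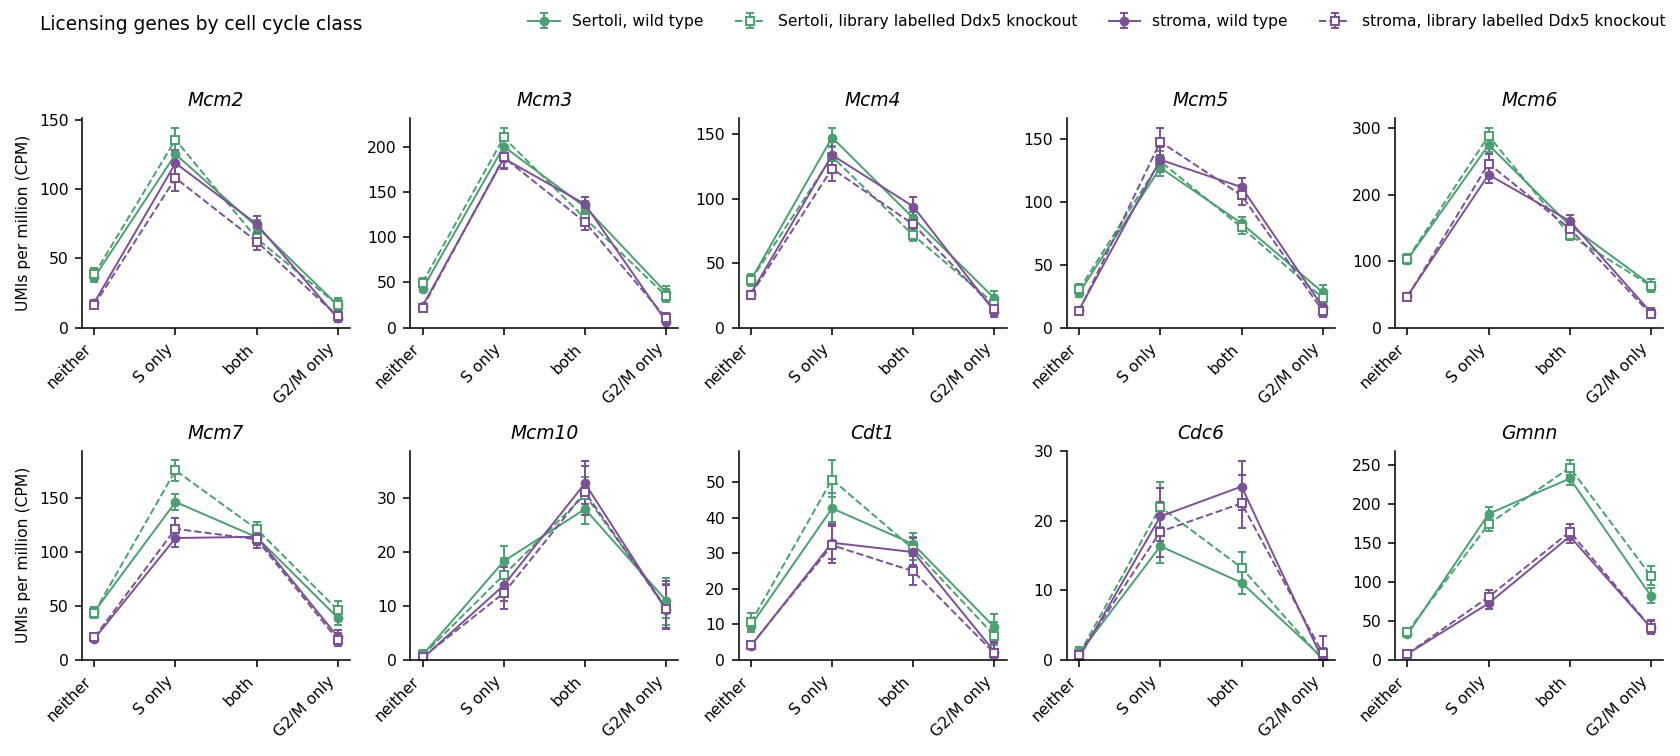
Level of each licensing gene in CPM, on a linear axis, in cells above neither cut, the S cut only, both cuts and the G2/M cut only, for Sertoli cells and stroma of both libraries, with exact 95% Poisson intervals. The ring subunits and *Cdt1* are highest above the S cut only, except *Mcm7* in wild-type stroma (113 CPM there and 114 CPM above both cuts), while *Gmnn* and *Mcm10*, and in stroma also *Cdc6*, are highest above both cuts.

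A finer order was also made. Cells above either cut were ranked by the ratio of their G2/M to their S gene UMIs and divided into 6 equal bins. In wild-type Sertoli cells the Mcm2-7 sum went from 1395 CPM in the first bin to 240.4 CPM in the last, *Cdt1* from 69.1 to 6.23 CPM and *Cdc6* from 35.6 to 0.415 CPM, while *Gmnn* went from 280.2 only to 129.5 CPM. In stroma the sum went from 1041 to 95.4 CPM, and *Gmnn* from 90.04 CPM in the first bin to a peak of 160.5 CPM in the fourth and 54.1 CPM in the sixth. The other library had its *Gmnn* peak in stroma in the same bin, at 177 CPM. *Mcm10* in stroma was at 16.8 CPM in the first bin and peaked at 29.5 CPM in the second in wild type, and at 30.8 CPM in the fourth in the other library. The second to the fifth bin overlapped with this peak in wild type and the second to the fourth in the other library, so that the peak bins were not separate. In Sertoli cells *Gmnn* had its highest value in the first bin in both libraries, at 280.2 and 264.5 CPM, and so had *Mcm10*, at 33.7 and 32.1 CPM, with intervals that overlapped those of the second and the fourth bin. *Gmnn* in Sertoli cells did not fall steadily: it was at 180 CPM (168 to 193) in the third bin and 229.9 CPM (218 to 243) in the fourth in wild type, and at 202 CPM (187 to 218) and 231 CPM (216 to 246) in the other library, where the intervals overlapped.

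Within classes the difference between Sertoli cells and stroma was not the same. Above neither cut the Mcm2-7 sum of Sertoli cells was 1.94 times that of stroma in wild type (1.85 to 2.04) and 2.10 times in the library labelled *Ddx5* knockout (1.99 to 2.22). Above the S cut only it was 1.11 and 1.15 times, above both cuts 0.928 and 0.956 times and above the G2/M cut only 2.43 and 2.39 times. With the highest 10% of cells as the cut, the ratio above the G2/M cut only was smaller in both libraries, at 1.47 in the second. The ratios above the S cut only and above both cuts were thus nearer to 1 than those of the other classes. The classes were not matched between the types: above neither cut the median cell had 10.1 S gene UMIs per 10000 in wild-type Sertoli cells and 7.34 in stroma, and above both cuts 31.8 and 51.0. With only cells below 0.5 times each cut, the first ratio was 1.48 and 1.76.

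*Gmnn* was higher in Sertoli cells than in stroma in every class, at 4.22 times above neither cut, 2.58 times above the S cut only, 1.47 times above both cuts and 1.99 times above the G2/M cut only in wild type. The library labelled *Ddx5* knockout had 4.66, 2.15, 1.501 and 2.59 times. Against this, *Cdc6* above both cuts was lower in Sertoli cells, at 0.445 times (0.358 to 0.553) and 0.589 times (0.465 to 0.748), and so was *Mcm5*, at 0.742 and 0.758 times. More than 2-fold higher above neither cut were 1 of 8 genes with at least 20 UMIs in wild type (*Gmnn*) and 2 of 9 in the other library (*Mcm6* and *Gmnn*), beside 6.16% and 6.04% of all genes. Above the S cut only it was *Gmnn* alone in both, beside 6.54% and 7.14%.

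Leydig cells were set against stroma only above neither cut, where they were nearer to it than over all classes. The median cell there had 5.32 S gene UMIs per 10000 in wild-type Leydig cells and 7.34 in wild-type stroma. Above neither cut the Mcm2-7 sum of Leydig cells was 0.789 times that of stroma (0.703 to 0.883) in wild type and 0.719 times (0.632 to 0.814) in the library labelled *Ddx5* knockout. None of 8 genes in wild type and 1 of 8 in the other library, *Mcm4*, was more than 2-fold lower, beside 6.84% and 7.14% of all genes. *Gmnn*, at 1.27 times (0.820 to 1.90) and 1.23 times (0.770 to 1.88), had intervals that included 1. Myoid cells had 1.12 and 1.40 times the sum of stroma above neither cut, beside 1.19 and 1.35 over all classes, and 0.981 and 1.08 times above the S cut only. Wild-type germ cells above both cuts had 1.49 times the sum of stroma, and those above the S cut only 0.546 times.

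The library labelled *Ddx5* knockout was then set against wild type within each type. In Sertoli cells the Mcm2-7 sum was 0.998 times that of wild type (0.978 to 1.02), and none of the 10 genes passed 2-fold, beside 0.103% of all genes. *Mcm4* was at 0.884 times (0.836 to 0.934), *Mcm7* at 1.12 times (1.07 to 1.17) and *Cdc6* at 1.26 times (1.08 to 1.48), with intervals that left out 1. In stroma the sum was 0.938 times that of wild type (0.915 to 0.962) and all 10 genes were below 1, with *Mcm2* lowest at 0.865 times. On the log2 scale with 10 CPM added their median was -0.075 and their highest value -0.0091, beside a median of -0.0019 for all genes. In myoid cells the sum was at 1.06 times (1.01 to 1.11), a direction that turned to 0.468 times with cells of more than 1 gate left out and to 0.997 times with doubled gates. None of the 10 passed 2-fold in stroma or myoid cells, beside 0.0467% and 0.0941% of all genes. These are differences between 1 library and 1 other, which counting intervals do not compare with the spread between mice. Erythroid markers, which belong to red blood cells, moved with the library, at 76.3 CPM in wild-type stroma and 1005 CPM in the other, and at 141.5 and 318 CPM in Sertoli cells, and their part was not tested.

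In Leydig cells the Mcm2-7 sum was 1.18 times that of wild type (1.03 to 1.35), with *Gmnn* at 1.72 times (1.17 to 2.55), *Mcm5* at 1.71 times (1.03 to 2.87) and *Cdc6* at 3.84 times (1.01 to 21.4). Above neither cut, where 172 of 177 and 134 of 143 cells lay, the sum was 118 CPM (106 to 131) in wild type and 103 CPM (91.5 to 116) in those with the knockout label, lower in the second with overlapping intervals. There *Gmnn* was at 9.86 and 9.54 CPM, *Mcm5* at 5.98 and 4.96 CPM, and *Cdc6* had 2 UMIs in each. The other cells of the second library were 4 above the S cut only, 3 above both cuts and 2 above the G2/M cut only, of which 2 in each class were called doublets. The 4 cells above the S cut only held 24 *Mcm5* and 8 of the 11 *Cdc6* UMIs. With cells of 1 gate the ratio of the sum was 1.03 (0.836 to 1.26), and without doublets 1.195 (1.01 to 1.41). None of the 8 genes with at least 20 UMIs passed 2-fold, beside 0.196% of all genes. Erythroid markers there were at 4.98 and 1414 CPM. In macrophages 1 of 6 genes with enough UMIs passed 2-fold, *Gmnn* at 3.18 times (1.74 to 6.15), beside 2.97% of all genes. Markers of other types moved with the library there: erythroid markers were at 2758 CPM in wild type and 7.62 CPM in the other library, the reverse of their direction in the other types, stroma markers at 316 and 907 CPM, Sertoli markers at 418 and 726 CPM and Leydig markers at 1969 and 992 CPM, and their part was not tested.

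In germ cells the sum was at 0.289 times wild type (0.238 to 0.347). Of the 10 genes 9 were more than 2-fold lower, *Mcm6* at 0.548 times being the exception, beside 23.5% of all genes that were lower. A narrower choice took wild-type germ cells with more than 2 GFP UMIs and germ cells of the other library with more than 1 CRE UMI. Between these groups, chosen by different transgenes, 9 of 10 were lower too, beside 38.4%. *Cdc6* had no UMI in the 12 cells, which allows a ratio of up to 0.464. Of these 12 cells 11 were above neither cut of the cycle genes, against 5.6% in wild type, and 9 of 12 against 7.32% with all cells thinned to 5000 UMIs. Stroma markers were at 267 CPM in wild-type germ cells and 421 CPM in those with the knockout label, of which 4 also passed the stroma gate. The part of these values and of the Sertoli markers in the result was not tested.

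**Figure D5:**
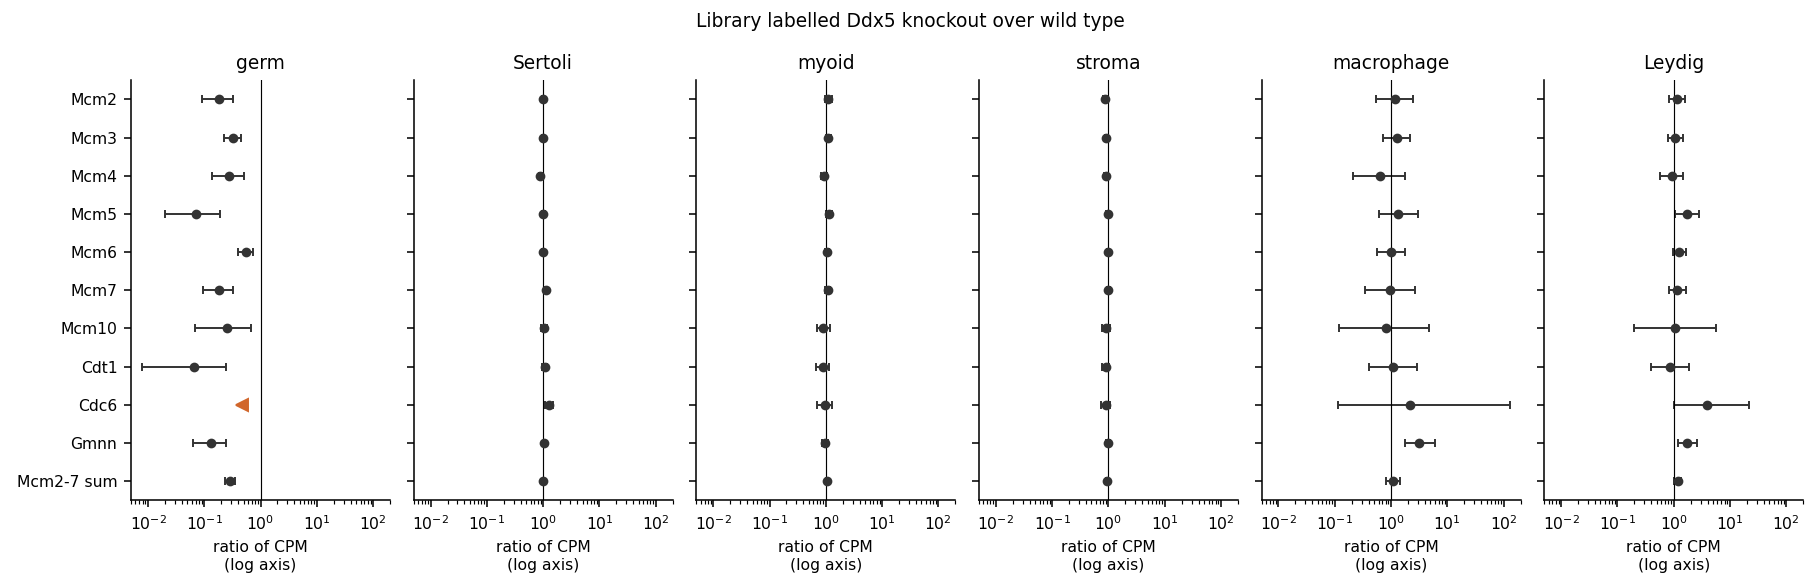
Ratio of the library labelled *Ddx5* knockout to wild type for each licensing gene in 6 cell types, on a log axis with exact conditional 95% intervals. Sertoli cells, stroma and myoid cells lie close to 1, and germ cells (12 cells in the library labelled *Ddx5* knockout) lie below it.

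The neighbours of licensing in the replication pathway were described by fixed lists. In Sertoli cells against stroma none of 6 origin recognition genes, 4 MCM relatives, 16 origin firing genes, 20 replisome genes and 11 E2F and pocket protein genes passed 2-fold in either library, beside 11.1% and 11.5% of all genes in either direction. Of 6 genes of CDT1 turnover that could be compared, 1 did in wild-type cells, which is near the share of all genes, and 2 did in those of the other library. *Cul4b*, a scaffold of ubiquitin ligases that mark CDT1 for destruction, was at 80.0 CPM in wild-type Sertoli cells and 28.0 CPM in stroma, a ratio of 2.86, with 2.50 in the other library. The second was *Fbxo5*, an inhibitor of the anaphase-promoting complex, at 2.49 times. *Gmnc*, a geminin relative, had no UMI in kept cells, and *Mcidas* was not analysed here.

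Among origin firing genes 15 of 16 were above stroma in Sertoli cells in each library, with medians of 0.36 and 0.46 on the log2 scale. *Dbf4*, the activator of the CDC7 kinase, was at 106 CPM in wild-type Sertoli cells and 49.2 CPM in stroma, with ratios of 2.16 and 2.19. *Tipin*, of the fork protection complex, was at 151 and 108 CPM. The replisome stood closer, with medians of 0.16 and 0.21, and *Pcna*, the sliding clamp, was at 160.4 and 150.3 CPM. *Rfc1*, of the clamp loader, was at 109 CPM in Sertoli cells and 120.4 CPM in stroma. *Orc6* was at 89.1 and 59.6 CPM, *Orc4* at 50.8 and 37.7 CPM, *Mcmbp* at 71.3 and 58.5 CPM, *Mcm9* at 19.9 and 13.8 CPM and *Ddb1*, a partner of CUL4 ligases, at 124 and 140.1 CPM. *E2f6* was at 47.8 and 24.7 CPM, and *E2f1* at 35.2 and 39.2 CPM.

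In Leydig cells the genes of origin firing and of the replisome had medians of -0.77 and -0.97 against stroma on the log2 scale in wild type, and of -0.73 and -0.69 in the other library. More than 2-fold lower than stroma were 3 of 16 origin firing genes and 10 of 20 replisome genes in wild type, and 2 and 5 in the library labelled *Ddx5* knockout, beside 7.03% and 7.23% of all genes. The count of origin firing genes in the second library is near this share. *Clspn*, a checkpoint mediator, was at 0.120 and 0.251 times stroma, *Gins2*, of the helicase complex, at 0.197 and 0.209 times, and *Lig1*, which joins Okazaki fragments, at 0.217 and 0.263 times. *E2f1* was at 0.186 and 0.239 times, and *Dtl*, which hands CDT1 to its ligase, at 0.277 and 0.404 times. None of the 6 origin recognition genes passed 2-fold in Leydig cells in either library. In macrophages 5 and 2 of 16 origin firing genes and 7 and 6 of 20 replisome genes in the respective libraries were more than 2-fold lower than stroma, beside 10.6% and 10.2% of all genes. Lower in both libraries were *Orc6*, *Dtl*, *Clspn*, *Tipin*, *Prim1*, *Lig1*, *Rpa2* and *Rpa3*. In wild-type germ cells 7 of 16 origin firing genes and 5 of 20 replisome genes were more than 2-fold higher, beside 13.5% of all genes, and *Cul4b* and *Rfc4* were higher in both libraries. In macrophages *Rb1*, the retinoblastoma protein, was at 61.5 CPM against 5.77 CPM in wild-type stroma, and in wild-type germ cells *Rbl2*, its relative, was at 5.32 CPM against 27.9 CPM.

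The genes most like the licensing genes were sought over 34 sums of cells, one for each type, class and library with at least 100000 UMIs, among 14017 genes with at least 200 UMIs. Among the genes most like the Mcm2-7 sum were *Timeless* (Pearson's r = 0.956), *Chaf1b* (0.950), *Pcna* (0.928) and *Hells* (0.928), of which *Chaf1b*, *Pcna* and *Hells* are among the S genes that defined the classes. *Gmnn* was most like *Fen1* (0.933), *Exo1* (0.925), *Lrr1* (0.912), *Nasp* (0.906) and *Mcm10* (0.902), of which *Fen1*, *Exo1* and *Nasp* are S genes. With the Mcm2-7 sum *Cdc6* had an r of 0.894, *Cdt1* of 0.888, *Gmnn* of 0.765 and *Mcm10* of 0.692. The sums share libraries and, where a cell passed several gates, cells, so that these are descriptions over profiles that are not independent.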

How the data were processed

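Single cells of whole testes at postnatal day 2 were sequenced with a droplet kit. The authors deposited 1 table of UMI counts for 30451 genes and 12186 barcodes, made with Cell Ranger 3.1.0, not normalized and with every barcode, also those of poor cells; GFP and CRE had been added to the reference. Seurat 3.1.5 and the build GRCm38 are named in the submitters' processing notes. Barcodes end in 3 or 4. These were taken as wild type and the library labelled *Ddx5* knockout from the cell numbers that the study states, since no label or header pairs a suffix with a genotype.

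The licensing genes, the lists and the gates were chosen with earlier results of these data known. Cells under 2000 genes, or with mitochondrial UMIs over 10%, were left out. A cell that passed several gates counted in each. Doublets called by Scrublet in scanpy 1.11.5, 284 (4.49%) and 296 (5.98%) cells, were kept. UMIs were summed per library and type and scaled to CPM over all UMIs of the sum. Sums have exact Poisson, ratios exact conditional binomial and shares exact Clopper-Pearson intervals. Calls past 2-fold used log2(CPM + 10) and genes with 20 or more UMIs over the groups compared. This scale understates changes of low genes. Motifs were searched as given on both strands.

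All 10 licensing genes were named. Of the other lists were named the pair of genes highest in wild-type Sertoli cells, any gene past 2-fold against stroma in both libraries in the same direction, as far as examples of it were printed, and any gene without UMIs. *Fbxo5* was named after its value was seen. Scripts were tested on simulated counts. Python 3.11.15, NumPy 2.4.6, SciPy 1.17.1, pandas 2.3.3 and matplotlib 3.10.9 were used. Alternatives changed the filters, gates, doublets, scaling, pseudocount and cycle cuts. Stroma without cells of other gates and cells below 0.5 times each cut were added after the data were seen. One gene that the rule on likeness names is not reported here.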

Additional observations from a re-analysis of the deposited data

Results flagged for a closer look

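Licensing UMIs were also counted outside the gated types. The Mcm2-7 sum was 352 CPM in the 214 kept wild-type cells that passed no gate and 357 CPM in the 162 such cells of the library labelled *Ddx5* knockout, above the 1.54 and 2.01 CPM that 3 UMIs would give. Barcodes left out by the filter on cells had 316 CPM (434 barcodes) and 249.7 CPM (473 barcodes), above the 2.23 and 2.22 CPM of 3 UMIs. This concerns counting only and does not tell UMIs of these cells from free RNA. These levels were near those of stroma or below.

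The ratio of the library labelled *Ddx5* knockout to wild type had intervals above 1 in some cell types and below 1 in others, and the difference between the types was not tested. For the Mcm2-7 sum the ratio was 1.18 in Leydig cells and 1.06 in myoid cells (below 1 with cells of 1 gate and with doubled gates), and 0.938 in stroma and 0.289 in germ cells. *Mcm5* was at 1.71 in Leydig cells and 1.14 in myoid cells, and at 0.0728 in germ cells. *Mcm7* was at 1.12 in Sertoli cells and 0.186 in germ cells. *Cdc6* was at 1.26 in Sertoli cells and 3.84 in Leydig cells, and at 0 in germ cells. *Gmnn* was at 1.05 in Sertoli cells, 1.72 in Leydig cells and 3.18 in macrophages, and at 0.133 in germ cells. The low values in germ cells rest on 12 cells with the knockout label, and the high value of *Gmnn* in macrophages on 23. Those in Leydig cells rest on few cells above a cut of the cycle genes: above neither cut the sum was at 118 CPM in wild type and 103 CPM in the other library, and *Mcm5* at 5.98 and 4.96 CPM.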

How the results depend on the processing

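Of 361 values of 72 results recomputed under 14 alternatives, 262 stayed within the counting interval or, for counts of members, within 1.5 times the count. Another 96 moved farther and 3 turned direction. A turn was counted only where the interval of the reported ratio left out 1. The cause was not tested except where fewer cells are named. No paired analysis was possible because barcodes carry no sample number. No value could be had for wild-type Sertoli cells over stroma above both cuts with the highest 10% of cells as the cut.

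The 3 that turned concern myoid cells of the library labelled *Ddx5* knockout: with cells of more than 1 gate left out (25 cells remained) their Mcm2-7 sum was 0.687 times stroma and 0.468 times wild type, and with doubled gates 0.997 times wild type. The ratios that follow are of the Mcm2-7 sum, wild type first and the library labelled *Ddx5* knockout second where a pair is given.

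Against stroma, Sertoli cells had 1.51 and 1.61 with at least 3000 genes, 1.74 and 1.92 with cells of 1 gate, 1.74 and 1.83 without doublets, 1.75 and 1.91 against stroma without other gates, 1.88 and 2.05 as the mean over cells, and 1.73 in wild type with doubled gates. Myoid cells had 1.13 and 1.24 with at least 3000 genes, 1.24 and 1.45 against stroma without other gates, and in wild type 1.34 with cells of 1 gate and 1.28 with doubled gates. As the mean over cells they had 1.43 in the library labelled *Ddx5* knockout. Leydig cells had 0.570 and 0.978 with at most 5% mitochondrial UMIs (42 and 30 cells), 0.300 and 0.337 with cells of 1 gate, 0.302 and 0.377 without doublets, and 0.418 in the second library with at least 3000 genes. Macrophages had 0.368 in wild type with cells of 1 gate and 0.711 in the second library as the mean over cells. Wild-type germ cells had 2.16 with at least 3000 genes, 1.94 with at most 5% mitochondrial UMIs, 2.81 with cells of 1 gate, 2.495 with doubled gates, 2.66 as the mean over cells and 2.50 against stroma without other gates.

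The second library against wild type had 1.63 in Leydig cells and 0.357 in germ cells with at most 5% mitochondrial UMIs. With cells of 1 gate it had 1.03 in Leydig cells, 0.914 in stroma and 1.52 in macrophages. As the mean over cells it had 1.02 in Sertoli cells.

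Of the members past 2-fold against stroma, a pseudocount of 1 CPM gave 4 in wild-type macrophages and, in the second library, 3 in Sertoli, 6 in Leydig and 5 in germ cells. One of 50 CPM gave 0 in Leydig cells and macrophages of both libraries, 2 in germ cells of wild type and 0 in those of the second library. Cells of 1 gate gave 4 in wild-type macrophages and 2 in Sertoli, 5 in Leydig and 2 in germ cells of the second library. Stroma without other gates gave 2 in Sertoli cells there.

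For cells above the S cut only over those above neither cut, the highest 10% as cut gave 2.47 and 2.45 in Sertoli cells and 4.12 and 4.03 in stroma. Only cells below 0.5 times each cut gave 6.49 and 6.47, and 8.62 and 9.92. In wild-type stroma cells of 1 gate and stroma without other gates both gave 6.53. For the G2/M cut only over the S cut only, the highest 10% gave 0.143 and 0.179 in stroma and 0.217 in Sertoli cells of the second library, where removal of doublets gave 0.169. For Sertoli cells over stroma, cells below 0.5 times each cut gave 1.48 and 1.76, and 1 gate gave 2.24 in the second library above neither cut. Above the S cut only, the highest 10% gave 1.19 and 1.22, stroma without other gates 1.08 and 1.198, and cells of 1 gate 1.2004 in the second library. Above both cuts stroma without other gates gave 0.971 in wild type, and the highest 10% 0.797 in the second library. Above the G2/M cut only the highest 10% gave 1.80 and 1.47. *Gmnn* UMIs for 100 of the Mcm2-7 sum, without doublets, were 12.8 in wild-type myoid cells and 11.2 in Leydig cells of the second library.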
